A study of Mus musculus with 18 samples.

Results

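The MYC family oncogenes Myc, Mycl and Mycn were followed tumor by tumor in RNA-seq and ATAC-seq libraries of mouse small cell lung cancer (SCLC). They are 3 of the 46078 genes of the RNA-seq table, and all 3 passed the filter on low counts. Chromatin was described by the peaks within 50000 bp of each gene, which were 5 for Myc, 13 for Mycl and 2 for Mycn, or 20 of 111664 peaks. All mice carried floxed Rb1 and Trp53 together with a further Rb-like gene that is named Rbl1 in the labels and Rbl2 in the Results of the study (the TKO genotype). TKO;Carm1KO mice also carried a conditional Carm1 allele, and TKO;NfibR388K mice an Nfib knock-in that replaces the arginine methylated by CARM1 with lysine. Tumors were started by adenoviral Cre at 8 weeks of age and collected 28 weeks later, with 3 animals per genotype and 3 libraries per genotype and assay. According to the Methods the cells were sorted for a Cre-dependent tdTomato reporter, whereas the Results name biopsies and the ATAC-seq Methods cancer cell lines. The labels do not tell whether an RNA-seq and an ATAC-seq library with the same number came from the same tumor.

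MYC proteins are transcription factors that bind E-box DNA as dimers with MAX and drive growth, ribosome production and cell division. MYC, MYCL and MYCN have closely related DNA-binding and dimerization regions, and tumors often rely on a single member. In SCLC, amplification or high expression of MYCL or MYCN is typical of neuroendocrine tumors, and high MYC of tumors with fewer neuroendocrine features.

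RNA-seq libraries held between 15848866 and 20915057 counted reads, and ATAC-seq libraries between 26917178 and 47653979 reads on peaks. A value of 3 reads, taken as the detection floor, was 0.143 to 0.189 CPM (reads per 1000000 counted) in RNA-seq, and all member values exceeded it. Counts cover the whole Carm1 gene and do not resolve the deleted part, so the Carm1 transcript levels of 50.8 to 79.1 CPM in TKO;Carm1KO against 44.5 to 103 CPM in TKO do not check that genotype. The 12 neuroendocrine markers summed to 1891 to 4399 CPM in TKO and to 34 to 51.3 CPM in TKO;NfibR388K. In TKO;Carm1KO they summed to 59.4, 188 and 1889 CPM in replicates 1, 2 and 3, so replicate 3 stood apart with all 12 at 1 CPM or more. In that library Calca alone, at 833 CPM, made 44.1% of the sum, and 8 of the 12 markers lay below every TKO library. The 6 fibroblast markers summed to 11.1 to 63.4 CPM in TKO, 14457 to 25795 CPM in TKO;Carm1KO and 9479 to 15915 CPM in TKO;NfibR388K. The neuroendocrine markers common in SCLC were therefore low in 5 of the 6 mutant libraries, which the SCLC label alone would not show. None of the neuroendocrine or fibroblast markers was at 0 in all libraries of a genotype. Leukocyte markers summed to 3.63 to 54.3 CPM in TKO, 180 to 2670 CPM in TKO;Carm1KO and 26.8 to 526 CPM in TKO;NfibR388K, with Cd3e at 0 throughout. Lung epithelium markers reached 629, 266 and 2050 CPM in the 3 genotypes, and endothelium markers 21.3, 73.9 and 12.2 CPM, with Emcn at 0. The part of these markers in the differences below was not tested, and in bulk RNA fewer cells of a type cannot be told apart from less RNA per cell.

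The leading family member in TKO replicates 1 and 2 differed from that in all other libraries. Levels were compared between genes as CPM per kb of exon. Mycn held 90.5% and 99.1% of the summed family level in TKO replicates 1 and 2, and Myc held 57.6% in TKO replicate 3. Myc led in all 6 mutant libraries, with 86.2% to 96.0%. The share of Myc was 19.3% ± 33.2 (SD, n = 3) in TKO, 89.2% ± 3.88 in TKO;Carm1KO and 92.9% ± 4.31 in TKO;NfibR388K. The 2-sided exact permutation p was 0.10 for each mutant against TKO, the smallest that 3 against 3 libraries allow. The share of Mycn was 74.0% ± 36.3 in TKO, 1.28% ± 0.651 in TKO;Carm1KO and 5.32% ± 5.06 in TKO;NfibR388K, with an exact permutation p of 0.10 for each comparison with TKO. The share of Mycl overlapped between TKO, at 0.764% to 9.97%, and both mutants, at 5.69% to 11.8% and 0.884% to 3.08%.

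**Figure D1:**
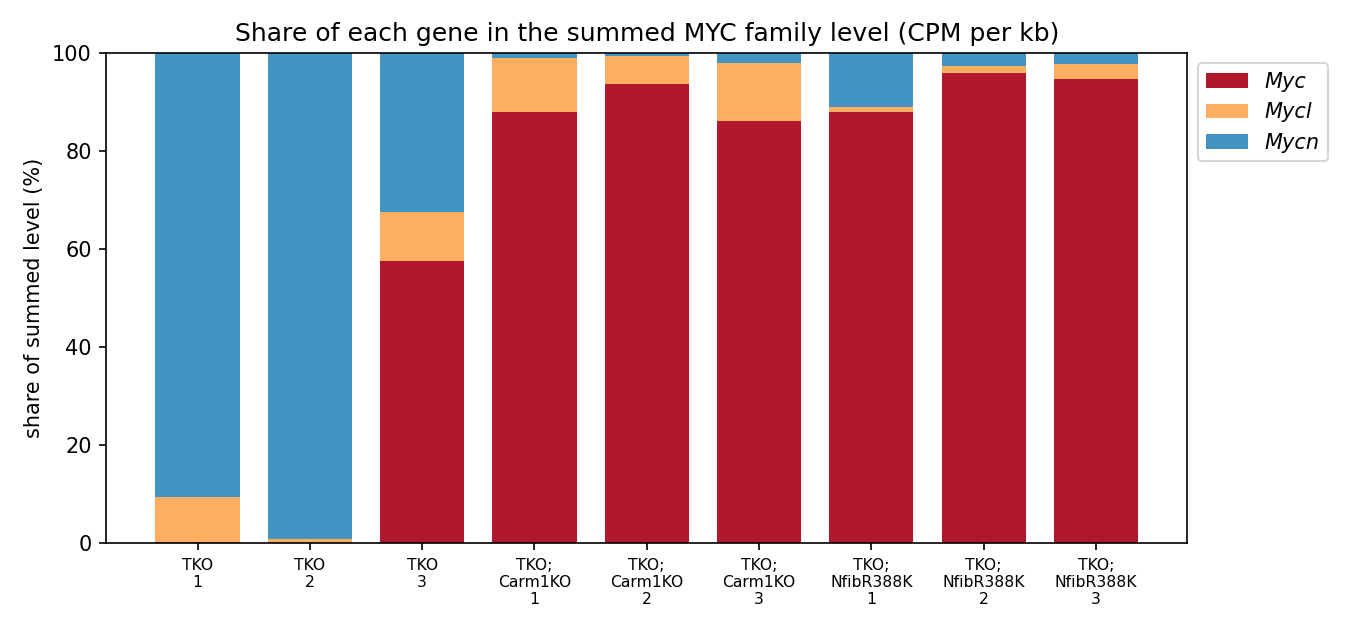
Share (%) of Myc, Mycl and Mycn in the summed family level (CPM per kb of exon) in each of the 9 RNA-seq libraries, labelled by genotype and replicate number. Mycn fills 90.5% and 99.1% of the bars of TKO 1 and 2, and Myc is the largest part of the other 7 bars.

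Both mutants were compared with the same 3 TKO libraries. The summed family level was 393 and 478 CPM per kb in TKO replicates 1 and 2 and 17.8 in TKO replicate 3. It was 33.1, 34.3 and 23.9 CPM per kb in TKO;Carm1KO and 39.2, 35.4 and 17.4 in TKO;NfibR388K. TKO replicate 3 therefore lay within the range of the mutant libraries, and the sum of neither mutant was separated from TKO (exact permutation p = 0.40 and 0.30).

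**Figure D2:**
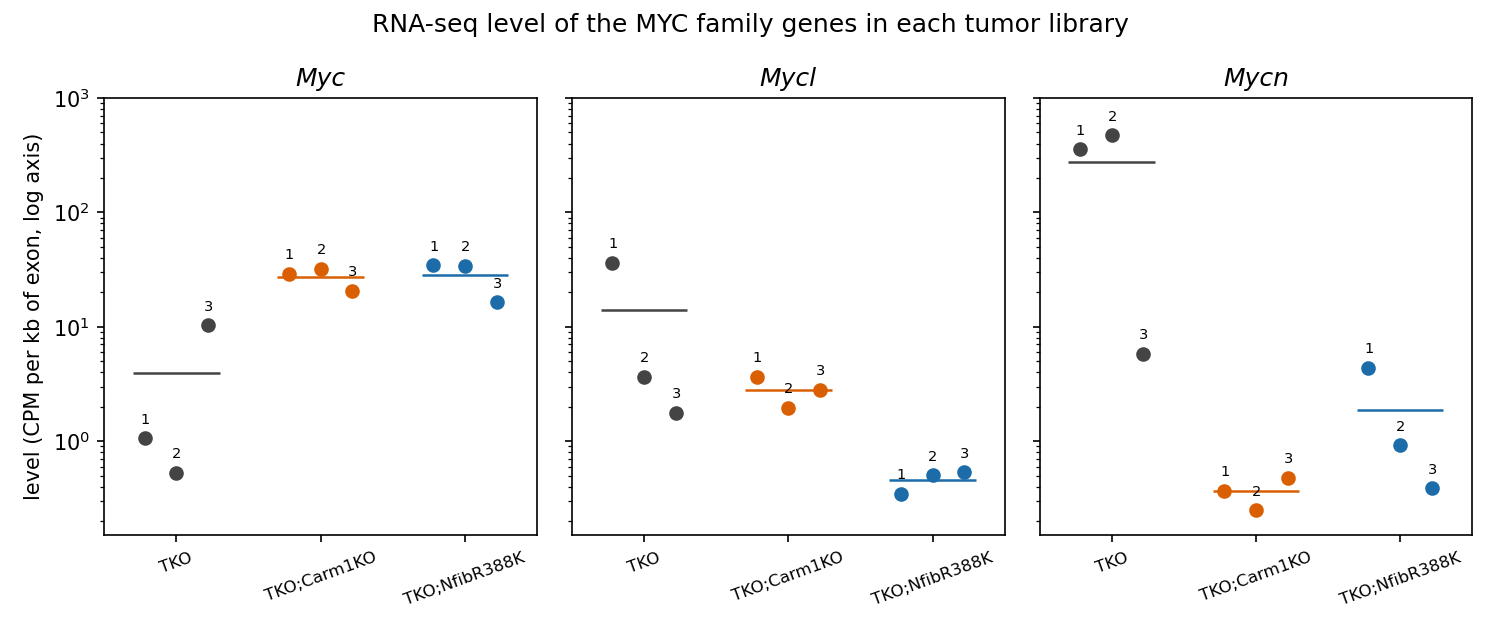
RNA-seq level (CPM per kb of exon, log axis) of Myc, Mycl and Mycn in each library, by genotype. Points are libraries with their replicate number and lines are means over 3 libraries. Myc is lowest in TKO 1 and 2, Mycn is highest there, and Mycl is lowest in the 3 TKO;NfibR388K libraries.

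Mycn (ENSMUSG00000037169, chr12:12936093-12941914, minus strand, GRCm38), which encodes the member typical of neural progenitors and neuroblastoma, fell in both mutants. Read counts were 24412, 35673 and 430 in TKO, 18, 14 and 28 in TKO;Carm1KO and 237, 49 and 20 in TKO;NfibR388K. These are 1173, 1560 and 19.1 CPM in TKO, 1.22, 0.817 and 1.57 CPM in TKO;Carm1KO and 14.4, 3.02 and 1.27 CPM in TKO;NfibR388K. TKO replicates 1 and 2 stood far above all other libraries, with Mycn at rank 31 and 22 of 46078 genes, against rank 8149 in TKO replicate 3. All 6 mutant libraries lay below the 3 TKO libraries, though TKO;NfibR388K replicate 1 came close to TKO replicate 3. Of all genes tested, 45.5% were separated in this way in either direction. The log2 fold change against TKO was -9.57 (SE 1.85, edgeR adjusted p = 0.00762) in TKO;Carm1KO and -7.20 (SE 1.66, adjusted p = 0.0117) in TKO;NfibR388K. Such calls were frequent, since 18.3% and 23.5% of the 15514 genes tested were called lower in these comparisons, where a call meant a log2 change of 0.8 or more either way with an adjusted p below 0.1. With TKO replicate 3 as the only TKO library, the change was -3.96 (edgeR adjusted p = 0.0781) in TKO;Carm1KO and -1.60 (adjusted p = 0.353) in TKO;NfibR388K. With 1 TKO library the spread comes from the mutant groups alone and that library is assumed to vary like them, here and wherever this comparison is given below. Mycn was at 1.57 CPM in TKO;Carm1KO replicate 3, the mutant library with the highest neuroendocrine sum.

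The genes that flank Mycn were high in the same TKO libraries. Ddx1, an RNA helicase gene whose start lies 307299 bp from that of Mycn, was at 12791, 23638 and 305 CPM in TKO and at 163 to 196 CPM in the mutants. Fam49a, the nearest protein-coding gene on the other side at 679775 bp, was at 2652, 1791 and 64.3 CPM in TKO and at 3.09 to 23.2 CPM in the mutants. Both were called lower in both mutants, with log2 fold changes of -6.01 (SE 1.29) and -6.21 (SE 1.30) for Ddx1 and -7.53 (SE 1.45) and -6.68 (SE 1.39) for Fam49a (edgeR adjusted p between 0.0074 and 0.011). Nbas, added after its values were seen, was at 1565, 3339 and 58.7 CPM in TKO and overlapped the mutants, at 42.6 to 71.8 CPM, only through TKO replicate 3. The expression of 3 neighbours thus followed the split of the TKO libraries that Mycn showed.

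**Figure D3:**
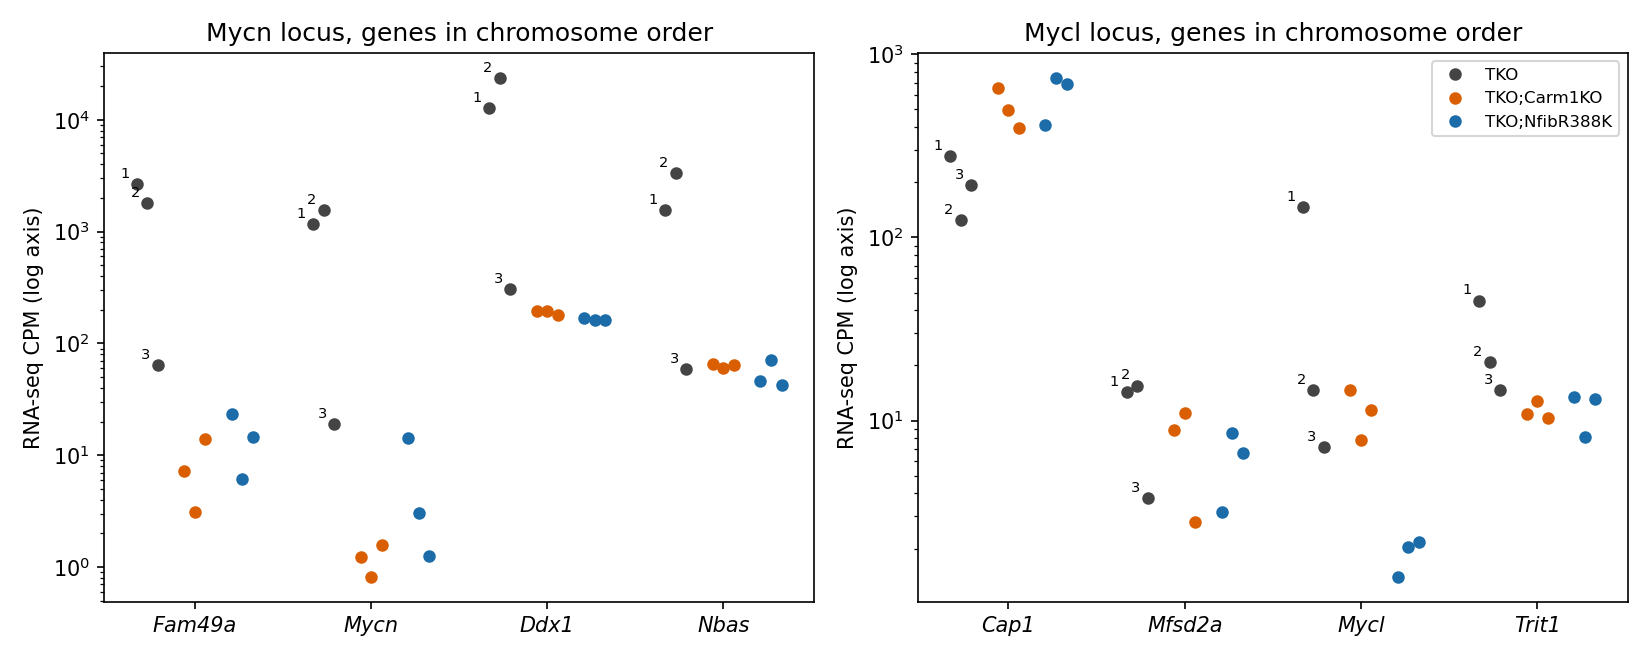
RNA-seq CPM (log axis) of Mycn, Mycl and genes near them in chromosome order, with 1 point per library coloured by genotype and replicate numbers on the TKO points. Fam49a, Mycn, Ddx1 and Nbas are far higher in TKO 1 and 2 than in the other 7 libraries, and Mycl and Trit1 are highest in TKO 1.

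ATAC-seq reads around Mycn could not be resolved into single elements. Its 2 peaks were 61213 bp and 105000 bp long, and the latter covered the gene. Such reads depend on DNA copy number as well as on accessibility, and the part of each was not tested. The peak over the gene (chr12:12928648-13033647) had 11955, 15739 and 121 CPM of ATAC-seq reads in TKO, 38.8 to 66.6 CPM in TKO;Carm1KO and 63.1 to 70.3 CPM in TKO;NfibR388K. The peak on its 3′ side (chr12:12865716-12926928) had 12640, 17732 and 112 CPM in TKO and 12.6 to 21.1 CPM in the mutants. Both were called lower in both mutants, where 32.4% and 34% of the 111116 peaks tested were called lower (the same p limit, with a log2 change of 0.5 or more either way). With TKO replicate 3 as the only TKO library, the difference at the peak over the gene was -1.32 on the log2 scale in TKO;Carm1KO (edgeR adjusted p = 0.00555) and -0.87 in TKO;NfibR388K (adjusted p = 0.0295), with a spread from the mutant groups alone. In 100 kb steps along the chromosome, where lower coordinates are the 3′ side of this minus-strand gene, TKO replicates 1 and 2 held at least 21.5 times the mutant median from 1600 kb on the 3′ side of the gene start to 1200 kb on the 5′ side, with ratios of 681 and 956 in the first step on the 3′ side. The ratio dropped to 0.378 and 0.272 in the step beyond 1200 kb, while TKO replicate 3 stayed between 1.19 and 6.05 over that stretch.

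**Figure D4:**
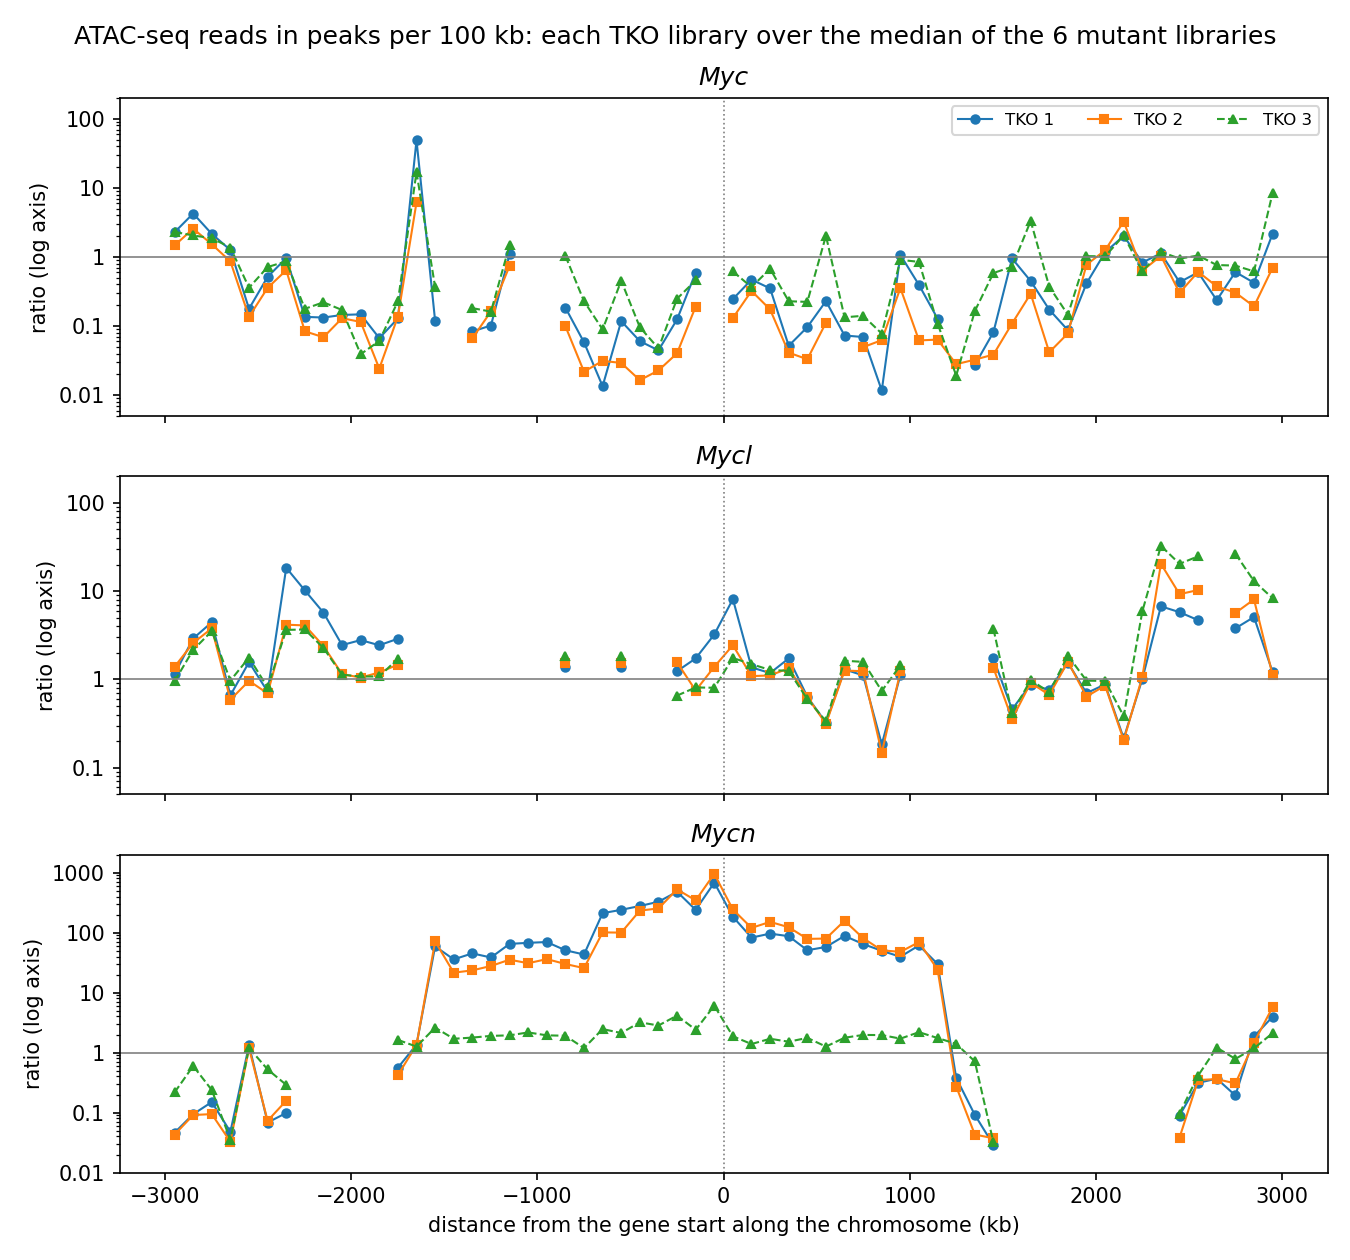
ATAC-seq reads in peaks per 100 kb step (CPM) in each TKO library divided by the median of the 6 mutant libraries (log axis), against distance from the gene start along the chromosome (kb, negative at lower coordinates, which is the 3′ side of Mycn). Steps without peaks or reads are gaps. Around Mycn, TKO 1 and 2 form a block of high ratios with edges near -1600 kb and 1200 kb. TKO 1 has a narrow rise at Mycl with a ratio of 8.12. Higher ratios occur in that panel far from the gene, with 18.4 in TKO 1 from -2400 kb and 32.6 in TKO 3 from 2300 kb. Most steps around Myc lie below 1 in all 3 TKO libraries.

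The promoter of Mycn is shown because its RNA fell most among the 3 members against all 3 TKO libraries. That fall rested largely on TKO replicates 1 and 2, and a link to the motifs marked here was not tested. RefSeq, the source of the sequence on GRCm38.p6, places the promoter at chr12:12941787-12942086 on the minus strand. Capitals mark 2 copies of TTGGC, which is 1 arm of the palindrome bound by NFI factors such as NFIB, and the NEUROD1 E-box CAGATG, here on the other strand. TTGGC was present on either strand in 46.7% of 32851 promoter windows of the same length, and CAGATG in 17.2%.
Mycn promoter: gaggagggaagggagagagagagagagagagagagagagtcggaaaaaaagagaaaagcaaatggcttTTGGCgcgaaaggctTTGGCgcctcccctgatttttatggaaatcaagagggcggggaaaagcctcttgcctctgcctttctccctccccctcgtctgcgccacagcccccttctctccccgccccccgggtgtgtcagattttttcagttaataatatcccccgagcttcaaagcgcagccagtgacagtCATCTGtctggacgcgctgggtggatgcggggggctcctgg

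Mycl (ENSMUSG00000028654, chr4:122995652-123002485, plus strand), which encodes a member that can be amplified in SCLC, fell in TKO;NfibR388K and did not pass the test in TKO;Carm1KO. Read counts were 3036, 337 and 162 in TKO, 217, 135 and 203 in TKO;Carm1KO and 23, 33 and 34 in TKO;NfibR388K. The levels were 146, 14.7 and 7.18 CPM in TKO, 14.7, 7.87 and 11.4 CPM in TKO;Carm1KO and 1.40, 2.03 and 2.16 CPM in TKO;NfibR388K. All TKO;NfibR388K libraries lay below all others, whereas TKO;Carm1KO spanned the same range as TKO replicates 2 and 3. The log2 fold change was -4.90 (SE 1.14, edgeR adjusted p = 0.0121) in TKO;NfibR388K and was called lower in 19 of 19 alternatives, with values from -5.39 to -1.92. In TKO;Carm1KO it was -2.30 (SE 1.01, edgeR adjusted p = 0.108), which missed the threshold, and it was 0.07 without TKO replicate 1 (adjusted p = 0.93). It was called lower without TKO replicate 2 or 3, at -2.76 (edgeR adjusted p = 0.0856) and -2.79 (adjusted p = 0.0394), and by DESeq2 at -2.32 (adjusted p = 0.0426). Over its alternatives the adjusted p ranged from 0.0394 to 0.93. The difference between the mutants was 2.60 (SE 1.04, edgeR unadjusted p = 0.0367, adjusted p = 0.531), higher in TKO;Carm1KO in 3 of 3 libraries but not called. In 15.6% of genes tested the libraries of the 2 mutants did not overlap.

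Mycl lies between Mfsd2a, a lysophospholipid transporter gene, and Trit1, which encodes a tRNA-modifying enzyme. Trit1 was at 45.2, 20.8 and 14.6 CPM in TKO and at 8.14 to 13.4 CPM in the mutants, and was called lower in both (log2 fold changes of -1.25 and -1.22, SE 0.43 for each, edgeR adjusted p = 0.0563 and 0.052). Like Mycl, it was highest in TKO replicate 1. Mfsd2a was at 14.3, 15.5 and 3.77 CPM in TKO and was not called, with log2 fold changes of -0.56 (SE 0.70) and -0.86 (SE 0.71). Cap1, an actin regulator 109596 bp away that was added after its values were seen, rose in both mutants, by 1.38 (SE 0.36) and 1.63 (SE 0.37) on the log2 scale (edgeR adjusted p = 0.0223 and 0.0102).

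More peaks at Mycl were called lower than higher in the mutants, with a split that depended on the TKO libraries and the scaling. Of its 13 peaks, 7 were called lower and 2 higher in TKO;Carm1KO, and 7 lower and 1 higher in TKO;NfibR388K, beside backgrounds of 32.4% lower and 38.7% higher, and 34% lower and 39.3% higher. The median log2 fold change was -0.81 and -1.17. TKO replicate 1 was the highest library in 9 of the 13 peaks, and the summed ATAC-seq level was 444, 153 and 104 CPM in TKO, 77.7 to 104 CPM in TKO;Carm1KO and 71.2 to 81.4 CPM in TKO;NfibR388K (exact permutation p = 0.20 and 0.10). Without TKO replicate 1 the log2 ratio of these sums moved from -1.41 to -0.55 in TKO;Carm1KO and from -1.63 to -0.77 in TKO;NfibR388K. With TKO replicate 3 as the only TKO library, 2 peaks were called lower and 3 higher in TKO;Carm1KO, and 4 lower and 1 higher in TKO;NfibR388K. Without TKO replicate 1 the split was 4 lower and 2 higher in TKO;Carm1KO, and 5 lower and 2 higher in TKO;NfibR388K. Without TKO;Carm1KO replicate 3 the split in TKO;Carm1KO was 6 lower and 4 higher. With scaling by totals, which moved the median of all peaks from 0.22 to 0.79, it was 4 lower and 3 higher, and 5 lower and 2 higher. Libraries of both mutants together did not overlap TKO at 5 of the 13 peaks, compared with 61.7% of all peaks tested. The peaks at the promoter and in an intron of Mfsd2a (chr4:122959839-122962343 and chr4:122954760-122956224), 2 of the 7 called lower, were the least stable. The former kept its call in 7 of 21 alternatives in each mutant, and the latter in 18 of 21 in TKO;Carm1KO and 11 of 21 in TKO;NfibR388K.

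The start-site peak of Mycl (chr4:122995014-122998110) had 140, 40.9 and 34.7 CPM in TKO, 24.1, 31.1 and 26.8 CPM in TKO;Carm1KO and 22.2, 19.2 and 21.5 CPM in TKO;NfibR388K. All mutant libraries lay below TKO, with log2 fold changes of -1.39 (SE 0.43, edgeR adjusted p = 0.0148) and -1.78 (SE 0.43, adjusted p = 0.00441). With TKO replicate 3 as the only TKO library the first was -0.37 (edgeR adjusted p = 0.214), and scaled by totals it was -0.79 (adjusted p = 0.11), and the call was lost in 3 of 21 alternatives. An intergenic peak 18469 bp downstream of the gene start (chr4:123013311-123014932) had 35.9, 6.37 and 10.9 CPM in TKO, 0.878, 1.42 and 2.97 CPM in TKO;Carm1KO and 1.11, 0.842 and 0.589 CPM in TKO;NfibR388K. It fell in both mutants, with -3.33 (SE 0.69, edgeR adjusted p = 0.00204) and -4.39 (SE 0.73, adjusted p = 0.000571), and kept the call in 21 of 21 alternatives. A peak in an intron of Trit1 (chr4:123050338-123051764) had 68.3, 26.3 and 6.0 CPM in TKO, 1.99, 4.36 and 3.41 CPM in TKO;Carm1KO and 1.79, 1.52 and 1.84 CPM in TKO;NfibR388K. Its log2 fold changes were -3.36 (SE 0.69, edgeR adjusted p = 0.00192) and -4.29 (SE 0.72, adjusted p = 0.000611), and -0.91 (adjusted p = 0.214) in TKO;Carm1KO with only TKO replicate 3. The peak 3154 bp past the gene start (chr4:122998246-122999367) rested on TKO replicate 1, at 21.7 CPM there, 3.86 and 1.10 CPM in the other TKO libraries and 0.549 to 1.23 CPM in the mutants. Its log2 fold changes of -3.33 (SE 0.90) and -3.37 (SE 0.90) shrank to -0.34 and -0.37 with only TKO replicate 3.

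At 2 peaks the call was higher. At chr4:122990648-122991346, 4655 bp upstream of the gene start, TKO had 0.319, 0.155 and 0.0845 CPM, near the floor of 0.063 to 0.111 CPM, TKO;Carm1KO 4.86, 1.86 and 1.45 CPM and TKO;NfibR388K 0.658, 1.76 and 1.83 CPM. It was called higher in both mutants, at 3.82 (SE 0.74, edgeR adjusted p = 0.0014) and 2.88 (SE 0.72, adjusted p = 0.00506), and in 20 of 20 alternatives. In an intron of Trit1 (chr4:123018464-123019091), TKO had 2.26, 0.649 and 1.01 CPM, TKO;Carm1KO 3.15, 3.53 and 2.25 CPM and TKO;NfibR388K 2.36, 2.19 and 1.88 CPM, so that the groups overlapped. It was called higher in TKO;Carm1KO, at 1.18 (SE 0.51, edgeR adjusted p = 0.0594) and in 15 of 21 alternatives, and was at 0.71 (SE 0.51, adjusted p = 0.229) in TKO;NfibR388K.

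The Mycl promoter and the middles of the 2 distal peaks that fell most at Mycl are shown here, since they are elements whose peaks fell in both mutants. The promoter window (RefSeq, GRCm38.p6, chr4:122995681-122995980, plus strand) held none of the motifs searched. The distal windows (plus strand of GRCm38) are chr4:123013972-123014271 and chr4:123050902-123051201. Capitals mark the NFI letters TTGGC, with 1 copy in the former and 2 in the latter. In windows of 300 bases, TTGGC on either strand was in 50.6% of all 111664 peaks and in 14 of the 20 peaks described here. The whole palindrome, which joins TTGGC over 5 bases to its reverse complement, was in 0.1% of all peaks and in 0 of these 20.
Mycl promoter: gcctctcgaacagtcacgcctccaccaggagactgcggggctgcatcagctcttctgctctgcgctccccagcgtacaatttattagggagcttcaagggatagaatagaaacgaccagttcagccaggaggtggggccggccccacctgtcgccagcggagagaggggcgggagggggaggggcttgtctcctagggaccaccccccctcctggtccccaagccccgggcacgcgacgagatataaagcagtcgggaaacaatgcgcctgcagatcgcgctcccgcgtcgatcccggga
Mycl intergenic peak: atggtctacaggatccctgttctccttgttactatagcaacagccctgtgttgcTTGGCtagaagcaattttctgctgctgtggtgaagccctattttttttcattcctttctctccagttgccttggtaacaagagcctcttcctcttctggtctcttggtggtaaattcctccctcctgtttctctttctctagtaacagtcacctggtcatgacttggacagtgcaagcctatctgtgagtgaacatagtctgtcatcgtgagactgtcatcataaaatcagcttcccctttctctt
Mycl peak in Trit1: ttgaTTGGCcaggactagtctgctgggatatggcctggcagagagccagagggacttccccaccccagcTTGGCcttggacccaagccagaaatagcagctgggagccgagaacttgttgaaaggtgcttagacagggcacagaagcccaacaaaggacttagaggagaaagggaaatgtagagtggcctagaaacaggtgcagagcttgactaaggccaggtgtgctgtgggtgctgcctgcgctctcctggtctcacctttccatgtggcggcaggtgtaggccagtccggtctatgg

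Myc (ENSMUSG00000022346, chr15:61985391-61990374, plus strand), the founding member of the family, rose in both mutants. Read counts were 60, 33 and 630 in TKO, 1164, 1495 and 998 in TKO;Carm1KO and 1540, 1498 and 703 in TKO;NfibR388K. These are 2.88, 1.44 and 27.9 CPM in TKO, 78.9, 87.2 and 56.1 CPM in TKO;Carm1KO and 93.6, 92.3 and 44.7 CPM in TKO;NfibR388K. Every mutant library lay above every TKO library, as 45.5% of genes tested did in either direction, and TKO replicate 3, the library with little Mycn, was nearest to them. The log2 fold change was 2.78 (SE 1.01, edgeR adjusted p = 0.0647) in TKO;Carm1KO and 2.84 (SE 1.01, adjusted p = 0.0534) in TKO;NfibR388K. Both were called higher, as were 20.5% and 22.3% of genes tested. The difference between the mutants was -0.05 (SE 0.94, edgeR adjusted p = 0.996). Between them 0 of 15514 genes were called by edgeR, with 1414 at an unadjusted p under 0.05 and 546 called by DESeq2. Without TKO replicate 3 the changes were 5.13 and 5.18 (edgeR adjusted p = 0.00161 and 0.00127). The calls were near the threshold, since the adjusted p rose to 0.146 and 0.125 without TKO replicate 1, to 0.104 without TKO replicate 2 in TKO;Carm1KO, and to between 0.103 and 0.128 without replicate 1 or 2 of the mutant compared (edgeR).

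Chromatin around Myc opened in both mutants, and not only close to the gene. Within 50 kb, TKO replicates 1, 2 and 3 held 0.335, 0.159 and 0.798 times the median mutant sum. The ratios were 0.0932, 0.0616 and 0.283 from 200 to 500 kb, and 0.434, 0.234 and 0.682 from 1000 to 2000 kb. Over all peaks, 38.7% and 39.3% were called higher in TKO;Carm1KO and TKO;NfibR388K. Of the 5 peaks of Myc, 4 and 5 were called higher, and none lower. The median log2 fold change was 2.34 and 2.51. The summed level was 40.9, 19.4 and 97.6 CPM in TKO, 108, 127 and 114 CPM in TKO;Carm1KO and 123, 144 and 121 CPM in TKO;NfibR388K (exact permutation p = 0.10 for each mutant against TKO, the smallest possible).

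The start-site peak of Myc (chr15:61983065-61988518) held most of these reads, with 27, 12.9 and 85.3 CPM in TKO, 70.8, 88.3 and 78.1 CPM in TKO;Carm1KO and 82.8, 100 and 77.4 CPM in TKO;NfibR388K. TKO replicate 3 lay within the mutant range there, and its difference from the mutants was -0.14 (edgeR adjusted p = 0.601) and 0.00 (adjusted p = 0.989) on the log2 scale when it was the only TKO library. Against all 3 TKO libraries the change was 0.92 (SE 0.50, edgeR adjusted p = 0.121) and 1.06 (SE 0.50, adjusted p = 0.0788), and the latter call held in 11 of 21 alternatives. Scaled by totals it was 1.39 (edgeR adjusted p = 0.0417) and 1.51 (adjusted p = 0.029). At the other 4 peaks the mutants did not overlap TKO, as at 61.7% of all peaks. At chr15:62028140-62029115, 43236 bp downstream of the gene start, TKO had 0.223, 0.216 and 0.296 CPM, TKO;Carm1KO 7.7, 6.41 and 7.5 CPM and TKO;NfibR388K 5.32, 11.2 and 14.7 CPM. All 3 TKO libraries were low there, TKO replicate 3 included, and the log2 fold changes were 4.87 (SE 0.50, edgeR adjusted p = 5e-05) and 5.40 (SE 0.51, adjusted p = 2.86e-05). The peaks 6412 bp and 13898 bp downstream (chr15:61990764-61992843 and chr15:61998679-61999900) rose by 2.55 (SE 0.64) and 2.34 (SE 0.65) in TKO;Carm1KO and by 2.75 (SE 0.64) and 2.51 (SE 0.65) in TKO;NfibR388K on the log2 scale, with TKO replicate 3 at 2.70 and 2.45 CPM against at most 0.765 CPM in the other TKO libraries. The fifth peak, at the promoter of the long noncoding RNA Pvt1, changed by 1.05 (SE 0.32) and 1.07 (SE 0.32). The RNA of Pvt1, added after its values were seen, rose in TKO;NfibR388K, by 1.47 (SE 0.48, edgeR adjusted p = 0.0394), and was at 0.96 (SE 0.47, adjusted p = 0.146) in TKO;Carm1KO. The nearest protein-coding genes, A1bg and Gsdmc, lay over 1000000 bp away and had 0 reads in all 9 libraries.

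**Figure D5:**
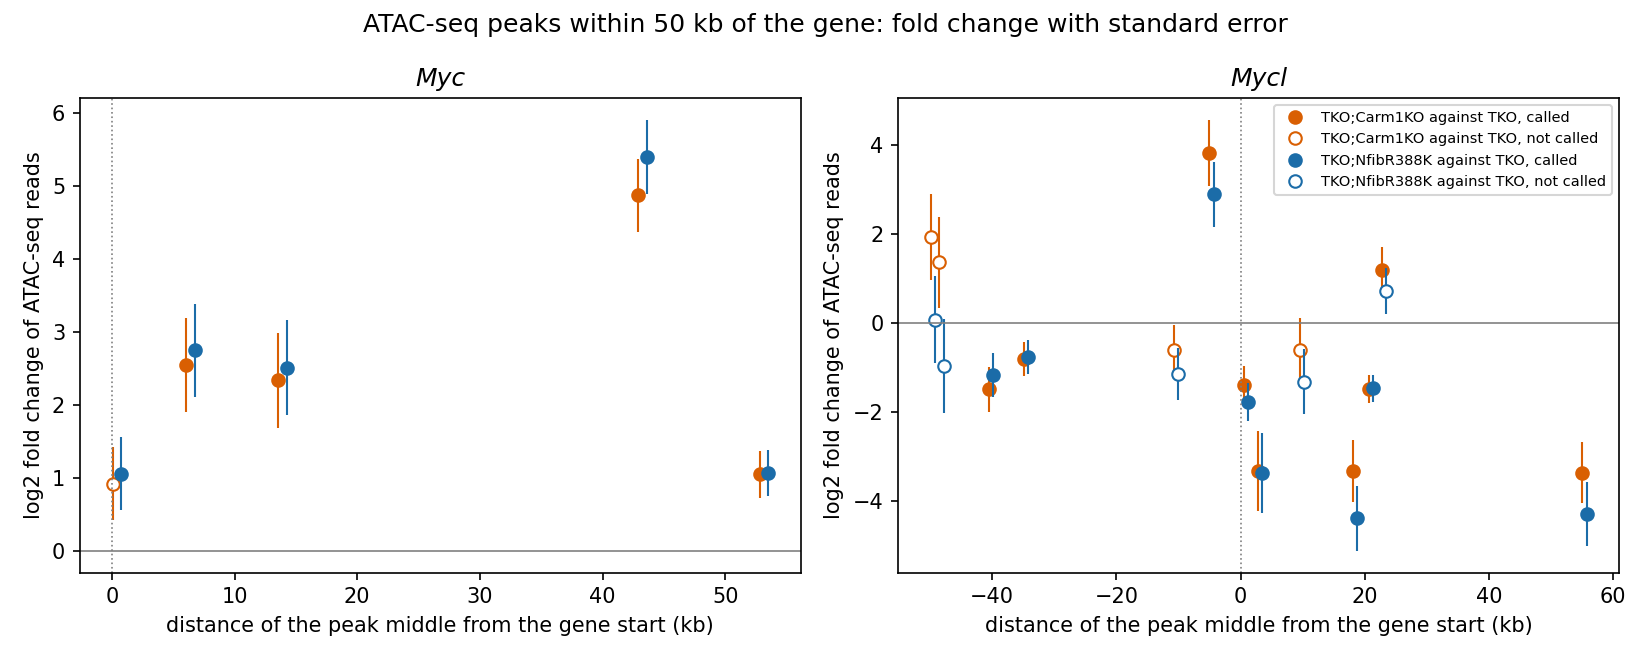
Log2 fold change of ATAC-seq reads against TKO, with standard error bars, for each peak within 50 kb of Myc (5 peaks) and Mycl (13 peaks), plotted by the distance (kb) of the peak middle from the gene start. Filled points were called and open points were not. All Myc peaks lie above 0, and most Mycl peaks lie below 0, with 1 peak at -4655 bp called higher in both mutants.

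The middle of the Myc peak that opened most is shown because it was nearly closed in TKO and open in all mutant libraries. The window is chr15:62028478-62028777 on the plus strand of GRCm38, of which 46.3% is marked as repeat. Capitals mark 2 copies of the AP-1 site TGANTCA (N is any base), which was in 23.7% of all peak windows and in 3 of the 20 described here.
Myc distal peak: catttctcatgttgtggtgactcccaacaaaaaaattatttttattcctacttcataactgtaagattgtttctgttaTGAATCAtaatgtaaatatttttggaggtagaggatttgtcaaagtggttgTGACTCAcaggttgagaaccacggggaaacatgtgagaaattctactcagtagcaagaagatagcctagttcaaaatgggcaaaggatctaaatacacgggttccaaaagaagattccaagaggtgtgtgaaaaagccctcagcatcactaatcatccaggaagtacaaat

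Over the 9 RNA-seq libraries, log2 CPM of Myc had a Pearson r of -0.928 with Mycn and -0.671 with Mycl, and Mycl of 0.573 with Mycn. These values describe 9 points in 3 groups and are not tested. The genes most like Myc were Orai1, a calcium channel gene (r = 0.986), Gm28438 (r = 0.985) and Tmem110 (r = 0.983). Mycl was most like Hprt, a purine salvage enzyme gene (r = 0.956), Shmt1 (r = 0.907) and Gbx1 (r = 0.894), and Mycn most like Ubxn7 (r = 0.995), Zfp292 (r = 0.989) and the activin receptor gene Acvr2b (r = 0.986). All 9 lie on other chromosomes than the member they resemble.

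In the MAX network, which pairs MYC proteins with MAX and opposes them through MXD, MNT and MGA, 2 of 10 genes were called lower in TKO;Carm1KO and 3 in TKO;NfibR388K, and none higher. The share of all genes called lower was 18.3% and 23.5%, so these counts are near the background. The median log2 fold change was -0.63 and -0.19, beside -0.03 and -0.05 over all genes. Max, the obligate partner, was at 75.4, 95.2 and 63.7 CPM in TKO and 29.3, 31.1 and 24.7 CPM in TKO;Carm1KO, a log2 fold change of -1.46 (SE 0.20, edgeR adjusted p = 0.002). In TKO;NfibR388K it was at 55.3, 68.0 and 60.5 CPM, with a change of -0.35 (SE 0.19, edgeR adjusted p = 0.169), and the difference between the mutants was -1.11 (SE 0.19, adjusted p = 0.268), which was not called. Mxd3, a MAX partner that opposes MYC, was called lower in both, at -0.81 (SE 0.20, edgeR adjusted p = 0.0191) and -0.96 (SE 0.20, adjusted p = 0.00841). The count was 1 without TKO replicate 1 in both mutants, without TKO;Carm1KO replicate 1 in TKO;Carm1KO, and without TKO replicate 2 or TKO;NfibR388K replicate 3 in TKO;NfibR388K. None of the 10 MYC cofactors, among them Trrap, Kat5 and Wdr5, was called in either mutant by edgeR or DESeq2. By edgeR 2 of the 10 had an unadjusted p under 0.05 in TKO;NfibR388K, among them Trrap at 0.34 (SE 0.14), and 0 did in TKO;Carm1KO, beside 53.4% and 47.5% of all genes tested.

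Genes that control MYC protein stability were called lower in 3 of 8 cases in TKO;Carm1KO and 5 of 8 in TKO;NfibR388K, beside 18.3% and 23.5% of all genes, and none was called higher. The median log2 fold change was -0.63 and -0.82. Gsk3b, the kinase that marks MYC for degradation, was at 228, 313 and 267 CPM in TKO and 98.3 to 157 CPM in the mutants, with changes of -0.88 (SE 0.18, edgeR adjusted p = 0.0095) and -1.23 (SE 0.18, adjusted p = 0.00217). Fbxw7, the ubiquitin ligase subunit that recognises that mark, changed by -0.82 (SE 0.24) and -1.16 (SE 0.24). Cip2a, which protects MYC from a phosphatase, changed by -0.83 (SE 0.33, edgeR adjusted p = 0.0867) and -0.98 (SE 0.34, adjusted p = 0.0457). It was at 140, 224 and 80.7 CPM in TKO and 63.8 to 94.8 CPM in the mutants, so the groups overlapped through TKO replicate 3. The genes called lower in both mutants thus include a factor that stabilises MYC and factors that destabilise it. The count fell to 1 in TKO;Carm1KO without TKO replicate 2 or TKO;Carm1KO replicate 1. It fell to 3 in TKO;NfibR388K without TKO replicate 1, TKO;Carm1KO replicate 3 or TKO;NfibR388K replicate 3.

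Of 30 genes usually induced by MYC, 6 were called higher and none lower in TKO;Carm1KO, and 3 higher and 4 lower in TKO;NfibR388K. Over all genes 20.5% and 22.3% were called higher and 18.3% and 23.5% lower, so none of these counts exceeded its background. The median log2 fold change was 0.34 and -0.16. Ccnd2, a D-type cyclin gene, was called higher in both, from 0 to 0.919 CPM in TKO to 56.5 to 219 CPM in the mutants, a change of 8.33 (SE 1.02) and 7.72 (SE 1.0) on the log2 scale (edgeR adjusted p = 0.00151 and 0.00144). The other genes called higher in TKO;Carm1KO, Bop1, Rrp12, Rrp9, Mybbp1a and Hspe1, act mainly in ribosome production or protein folding and changed by 0.90 to 1.27. In TKO;NfibR388K, Odc1 and Ldha were called higher and Nop58, Ncl, Ppat and Gnl3 lower, and of these Ncl and Gnl3 overlapped TKO. These genes were named beyond the rule after their values were seen. The summed level of the list was 4374 to 9608 CPM in TKO, 7822 to 11924 CPM in TKO;Carm1KO and 8344 to 9476 CPM in TKO;NfibR388K, so the 3 genotypes overlapped. The overlap came from TKO replicates 1 and 2, at 8527 and 9608 CPM. TKO replicate 3, at 4374 CPM, lay below every mutant library. The count in TKO;Carm1KO was larger with TKO replicate 3 as the only TKO library, and was not compared with a background there. The count of 7 in TKO;NfibR388K was 4 without TKO replicate 1, TKO replicate 2 or TKO;NfibR388K replicate 1, and 3 without TKO;NfibR388K replicate 2. With scaling by totals, which moved the median over all genes from -0.05 to -0.37, it was 11, with 2 higher.

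Of 7 genes that MYC represses, 2 were called higher and 1 lower in TKO;Carm1KO and 3 higher in TKO;NfibR388K. Over all genes 20.5% and 22.3% were called higher and 18.3% and 23.5% lower, and the list had a median log2 fold change of 0.52 and 2.43. Cdkn2b, a cyclin-dependent kinase inhibitor gene, was at 1.82 to 2.41 CPM in TKO and 35.8 to 49.3 CPM in the mutants, a change of 4.31 (SE 0.23, edgeR adjusted p = 0.000163) and 4.26 (SE 0.23, adjusted p = 0.000147). Gas1, a growth arrest gene, was at 0.0961, 13.5 and 24.6 CPM in TKO and 53.7 to 538 CPM in the mutants, at 4.38 and 4.48 (SE 1.43 for each, edgeR adjusted p = 0.0464 and 0.0375). Cdkn1a was called lower in TKO;Carm1KO, at -0.96 (SE 0.41, edgeR adjusted p = 0.098), and was at 0.28 (SE 0.40) in TKO;NfibR388K. Both Cdkn2b and Gas1 were thus higher in all 6 mutant libraries than in every TKO library, and the other genes of the list overlapped TKO. Over all genes tested, 45.5% were separated in this way in either direction. Myc and the summed fibroblast markers were higher in the mutant libraries too, and a link was not tested.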

How the data were processed

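RNA-seq and ATAC-seq were each made from 3 genotypes with 3 libraries, and replicates came from separate animals per the labels. The authors deposited whole-number read counts per gene and per peak. Gene counts came from htseq-count per the Methods and peak counts from featureCounts version 1.6.3 per the file headers, the build is GRCm38, and no depth normalization had been applied. The 5 summary entries of the gene table were left out, of which reads without a feature made 3.65% to 12.2%, ambiguous reads 3.84% to 4.5% and non-unique alignments 3.18% to 6.31%. Peaks were called with MACS2 per the Methods and Genrich per the labels. The Methods leave regions with putative copy number changes out of the ATAC-seq analysis, but peaks at Mycn were in the deposited table. Columns carry the letters C, KO and N, read through the legends of the study as TKO, Carm1 knockout and Nfib mutant.

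Counts were scaled by TMM and tested with edgeR 4.0.16 (quasi-likelihood, robust, filterByExpr, 9 libraries per fit, R 4.3.3), with Benjamini-Hochberg adjustment over 15514 genes or 111116 peaks. Calls were made where the adjusted p lay below 0.1 and the log2 change reached 0.8 (genes) or 0.5 (peaks) either way, as in the study. Standard errors were derived from the F statistic. Shares and sums were compared by 2-sided exact permutation tests (numpy 2.4.6). Floors of 3 reads cover counting error only. The test was checked on simulated counts with few changed features, which does not cover the many changes seen in these data. Alternatives were RLE scaling, totals, other filters and thresholds, DESeq2 1.42.0, only the genotypes compared, a replicate block, each library left out, other windows and, added after seeing the data, TKO replicate 3 as the only TKO library. Of 46078 gene identifiers, 45143 were in the annotation used. Motifs were searched on both strands in windows of the same length. A motif and a list gene are not reported here.

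The members and gene lists were chosen with earlier results of these data known. Named by rule were list genes that both mutants called the same way, the 3 genes with the highest Pearson r with each member over 9 libraries, and the nearest protein-coding neighbours. Others are said to have been added after their values were seen.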

Additional observations from a re-analysis of the deposited data

How the results depend on the processing

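Of the values recomputed under the alternatives, 679 kept their direction and side of the threshold, 43 counts or sums moved, 13 lost a call, 5 gained one and 5 reversed. DESeq2 gave no p for Myc or for 1 Mycl peak. The replicate numbers did not pair the libraries, with same-number correlations of deviations from -0.297 to 0.118 (RNA-seq) and -0.142 to 0.118 (ATAC-seq). The replicate block gave 3.40 and 3.50 for Myc, -1.56 and -3.95 for Mycl and -8.56 and -7.10 for Mycn, and it changed no call of a member and moved no count by over 1.5 times.

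Leaving out 1 library gave 2.27 to 5.13 and 2.32 to 5.18 for Myc in TKO;Carm1KO and TKO;NfibR388K, -2.79 to 0.07 for Mycl in TKO;Carm1KO, and -0.33 to 0.13 for Myc between the mutants, where it reversed at 0.13, 0.11 and 0.10 without TKO;Carm1KO replicate 3 or TKO;NfibR388K replicate 1 or 2. Mycl in TKO;Carm1KO reversed to 0.07 without TKO replicate 1 and to 0.68 with only TKO replicate 3. Myc in TKO;Carm1KO lost its call with no filter (2.82), only the genotypes compared (2.79), an adjusted p under 0.05 (2.78) or only TKO replicate 3 (1.43), and in TKO;NfibR388K under 0.05 (2.84). Mycl in TKO;Carm1KO gained a call with totals (-2.59), at least 10 counts in every library (-2.34) and DESeq2 (-2.32). Mycn in TKO;NfibR388K lost its call with only TKO replicate 3 (-1.60). The cause was not tested.

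Counts per list ranged, without 1 library, from 1 to 3 and 1 to 4 for the MAX network, 1 to 4 and 3 to 5 for protein stability, and 3 to 10 for induced targets in TKO;NfibR388K. With only TKO replicate 3 they were 1 and 1 (MAX network), 1 and 2 (cofactors), 3 (stability, TKO;NfibR388K), 14 and 4 (induced). The counts with only TKO replicate 3 rest on 1 TKO library and are given without direction or background. No filter gave 1 (MAX network, TKO;Carm1KO) and 3 (stability, TKO;NfibR388K). No fold threshold gave 2 (cofactors, TKO;NfibR388K) and 6 (stability, TKO;Carm1KO). Totals gave 5 (stability, TKO;Carm1KO) and 11 (induced, TKO;NfibR388K), and an adjusted p under 0.05 gave 4 (induced, TKO;NfibR388K).

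Called Myc peaks were 2 and 3 with at least 10 counts in every library, where only 3 of the 5 peaks were tested. In windows that hold other numbers of peaks they were 2 and 3 (20000 bp) and 9 and 11 (100000 bp). Called Mycl peaks were 15 within 100000 bp in TKO;Carm1KO, and 5 in TKO;NfibR388K with at least 10 counts or within 20000 bp. With at least 10 counts only 10 of the 13 Mycl peaks were tested. Mycn had 4 called peaks within 100000 bp in both. Summed Mycl reads ranged from -1.76 to -0.55 and -1.98 to -0.77 without 1 library. Totals moved the median of all peaks from 0.22 to 0.79 in both mutants, and that of all genes from -0.03 to -0.30 in TKO;Carm1KO.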
